A study of Homo sapiens with 18 samples.

Results

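The nuclear genes named NDUF encode subunits and assembly factors of mitochondrial complex I. Their messenger RNA was followed in 2 human multiple myeloma cell lines, KMS12-BM and JJN3, by RNA sequencing of poly(A)+ RNA. The members are the protein-coding genes whose symbol starts with NDUF and that had at least 10 reads in at least 3 of the 18 libraries. Of 48 such genes in the count files 47 met this rule, beside 17556 genes tested in at least 1 line. The gene left out, the readthrough NDUFC2-KCTD14, had 0 to 2 reads per library and 6 in all, whereas the least abundant member, NDUFA4L2, had at least 41 in every library.

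Each line was sampled in 3 groups of 3 libraries. Control cells were labelled as untreated (DMSO), with no duration. Amiloride is a potassium-sparing diuretic and a blocker of sodium channels and sodium-proton exchange; KMS12-BM received 0.1 mM and JJN3 0.4 mM for 24 h. TG003 inhibits CLK kinases, regulators of pre-mRNA splicing, and both lines received 0.4 mM for 24 h. The lines are named by the labels with no further genotype, and each is a single established line. Nothing in the labels tells whether the 3 libraries of a group stem from separate cultures. The p-values therefore cover only the spread between these libraries, which may be technical. Libraries are numbered 1 to 3 within a group in the order of the library numbers in their titles. Those numbers run in 3 consecutive sets, each with 1 library of all 6 groups, and what a set shares is not stated.

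Complex I (NADH:ubiquinone oxidoreductase) takes electrons from NADH, passes them through a flavin and a chain of iron-sulfur clusters to ubiquinone, and pumps protons across the inner mitochondrial membrane. Its peripheral arm, in the matrix, holds the flavin and the clusters, and its membrane arm holds the proton channels. The 14 core subunits come from both genomes, 7 from nuclear genes and 7 from mitochondrial DNA, and nuclear supernumerary subunits surround them. Assembly factors bind intermediates during construction and are absent from the finished enzyme. Myeloma cells secrete large amounts of immunoglobulin, and oxidative phosphorylation is among their sources of ATP.

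The members comprise 37 subunits: 7 core subunits, 9 supernumerary subunits of the peripheral arm, 9 of the proximal membrane arm, 11 of the distal membrane arm and NDUFAB1, the mitochondrial acyl carrier protein. The other members are the 8 assembly factors NDUFAF1 to NDUFAF8, NDUFA4, which is now counted as a subunit of complex IV, and its hypoxia-inducible paralogue NDUFA4L2. They lie on 22 chromosomes, with the most, 6, on chromosome 19.

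Sequence upstream of the genes was searched for 5 short motifs of factors known to act on genes of oxidative phosphorylation or on hypoxia. RefSeq promoters (GRCh38.p14, 250 bases before to 50 after the transcript start) were at hand for 39 members and 27305 genes in all. A gene counted if any of its promoters held the motif, and the 27305 were not limited to genes expressed here. The NRF1 motif GCGCANGCG was in 11 of the 39 members (28.2%) against 9.02% of all genes with a promoter, and the YY1 motif AAGATGGC in 8 (20.5%) against 3.52%. The ETS motif CCGGAAG was in 7 (17.9% against 12.2%), the hypoxia motif ACGTGC in 5 (12.8% against 8.33%) and the CREB motif TGACGTCA in 2 (5.13% against 2.25%), on either strand in each case. Promoters of 4 members whose responses are described below are shown from 250 bases before to 30 after the start, on the gene's strand, with motif matches in capitals. In NDUFAF8 (chr17:81239061-81239340, + strand) they mark an ETS and a YY1 match, in NDUFS4 (chr5:53560389-53560668, + strand) a YY1 match, and in NDUFAF5 (chr20:13784778-13785057, + strand) a hypoxia match on the other strand and 2 overlapping NRF1 matches. NDUFV3 (chr21:42893059-42893338, + strand) held none of the 5 motifs in this window.
NDUFAF8: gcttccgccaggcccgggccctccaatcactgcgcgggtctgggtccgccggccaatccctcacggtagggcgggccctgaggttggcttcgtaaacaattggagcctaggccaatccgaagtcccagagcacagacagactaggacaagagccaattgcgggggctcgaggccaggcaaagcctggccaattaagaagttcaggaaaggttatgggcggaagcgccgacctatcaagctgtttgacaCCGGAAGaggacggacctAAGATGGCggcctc
NDUFS4: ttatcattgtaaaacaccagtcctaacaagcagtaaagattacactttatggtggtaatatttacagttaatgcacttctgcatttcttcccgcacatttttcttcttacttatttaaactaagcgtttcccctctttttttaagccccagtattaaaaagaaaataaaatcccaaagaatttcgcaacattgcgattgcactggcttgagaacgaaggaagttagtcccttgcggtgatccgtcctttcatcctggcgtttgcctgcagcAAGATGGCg
NDUFAF5: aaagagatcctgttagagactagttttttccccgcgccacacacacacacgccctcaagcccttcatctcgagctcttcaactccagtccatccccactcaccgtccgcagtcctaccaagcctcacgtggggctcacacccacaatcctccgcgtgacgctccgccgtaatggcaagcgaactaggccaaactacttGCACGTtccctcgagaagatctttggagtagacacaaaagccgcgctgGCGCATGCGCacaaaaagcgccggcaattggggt
NDUFV3: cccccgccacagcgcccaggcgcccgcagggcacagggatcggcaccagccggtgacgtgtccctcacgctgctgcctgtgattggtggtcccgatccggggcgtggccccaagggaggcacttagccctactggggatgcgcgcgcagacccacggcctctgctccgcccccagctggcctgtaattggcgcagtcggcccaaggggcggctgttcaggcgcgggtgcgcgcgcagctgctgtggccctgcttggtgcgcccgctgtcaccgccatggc

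Members with and without a motif both moved in either direction. With amiloride in KMS12-BM, 4 of the 11 members with the NRF1 motif were higher and 1 lower (median log2 fold change 0.16), and 6 of the 28 without it were higher and 9 lower (median -0.13), where 33.5% of all genes tested were higher and 35.2% lower. Of the 8 members with the YY1 motif 1 was higher and 2 were lower. These counts are descriptions, and a match is not evidence of binding.

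Each library held between 23707695 and 50570234 reads in genes, and the members together took 0.30% to 0.36% of them. Mitochondrially encoded genes took 3.86% to 4.25% of reads in KMS12-BM with DMSO, 0.265% to 0.448% with amiloride and 3.43% to 4.41% with TG003. The corresponding ranges in JJN3 were 2.06% to 2.61%, 0.709% to 1.04% and 1.98% to 2.87%. The libraries also differed in where reads were placed: processed pseudogenes took 4.5% to 5.63% of reads in the 12 DMSO and amiloride libraries but 0.106% to 0.13% in the 6 TG003 libraries, and the share of records at more than 1 place in the genome was 13.3% to 17.4% against 7.79% to 9.13%. The plasma cell markers TNFRSF17, PRDM1, IRF4, XBP1 and MZB1 were present in both lines. IRF4 had the highest median, 1150 CPM (read counts scaled to a common library size) in KMS12-BM and 859 in JJN3. The defining surface marker SDC1 had a median of only 3.18 CPM in KMS12-BM against 139 in JJN3. CD38 went the other way, with a median of 91.8 CPM in KMS12-BM against 4.42 in JJN3. SLAMF7 stayed at or below 2.79 CPM in every library. Of 8 markers of other cells, CD3E, CD14, COL1A1 and ALB were each at or below 2.29 CPM in every library and the B-cell gene MS4A1 at or below 5.37. The epithelial marker EPCAM was at 102 to 189 CPM in KMS12-BM and 19.7 to 44 in JJN3. The B-cell gene PAX5 was at 36.5 to 69.9 CPM in KMS12-BM and at most 0.0564 in JJN3, and the erythroid gene HBB was at 21.3 to 65.8 in JJN3 and at most 0.0767 in KMS12-BM. In bulk RNA, fewer cells of a kind and less RNA per cell cannot be told apart.

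The members were expressed over a wide range. With DMSO, levels per kilobase of a single reference transcript for each gene had a median of 52.5 CPM per kb in KMS12-BM and 62.3 in JJN3. The most abundant per length in KMS12-BM were NDUFA1, a membrane arm subunit, at 366 CPM per kb, NDUFB9 at 363 and NDUFB11 at 256, and in JJN3 NDUFS5 at 395, NDUFB9 at 389 and NDUFV1 at 235. The methyltransferase-like assembly factor NDUFAF5, at 0.89 in KMS12-BM and 1.51 in JJN3, and NDUFA4L2, at 3.07 and 2.20, were the least abundant per length in both. This order depends on the transcript chosen, which had 5449 bases for NDUFAF5 and 943 for NDUFA4L2. Not divided by length, NDUFAF5 was at 4.85 and 8.2 CPM and NDUFA4L2 at 2.9 and 2.07.

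Summed over the 37 subunits, the level was 3170 ± 125 CPM (SD, n = 3) with DMSO, 2867 ± 126 with amiloride and 2956 ± 38.8 with TG003 in KMS12-BM. In JJN3 it was 2967 ± 145, 2986 ± 170 and 2933 ± 135. Single genes moved further, as the plot of responses by gene shows. Over all members log2 fold changes lay between -1.89 and 1.87 with amiloride in KMS12-BM and between -1.26 and 1.24 in JJN3. With TG003 they lay between -0.92 and 1.61 in KMS12-BM and between -0.73 and 1.24 in JJN3.

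**Figure D1:**
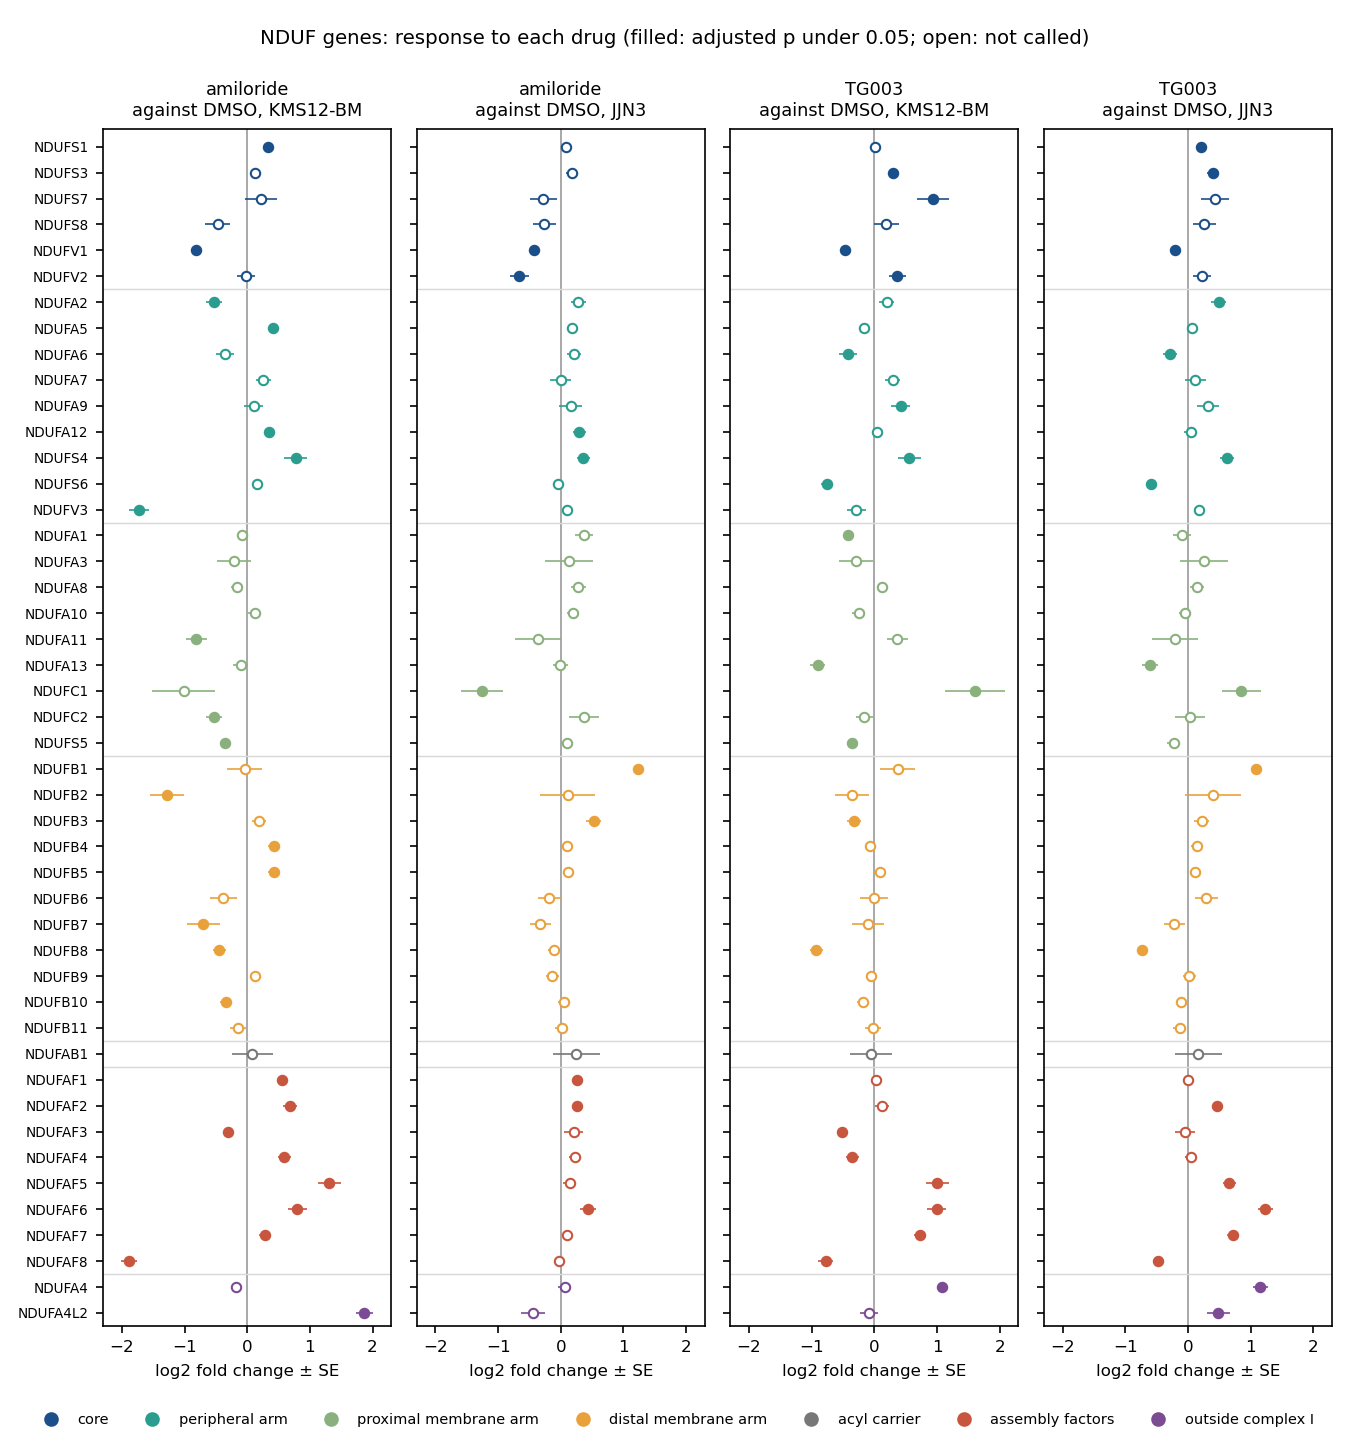
Log2 fold change against DMSO, with its standard error, for 46 NDUF genes (rows, grouped and coloured by role) with each drug in each line (panels). Filled points have an adjusted p under 0.05. With amiloride the assembly factors and NDUFV3 and NDUFA4L2 spread widely in KMS12-BM and less in JJN3.

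Amiloride in KMS12-BM changed 26 of the 47 members, 13 upward and 13 downward (edgeR quasi-likelihood test, Benjamini-Hochberg adjusted p under 0.05 over all genes). That is 55.3% of members, below the 68.7% called among all 15765 genes tested, of which 33.5% were higher and 35.2% lower. Their median log2 fold change was -0.04, against -0.02 over all genes, and 6 members were called with a difference of at least 2-fold, where 29.6% of all genes were. All 8 NDUFAF assembly factors were called, 6 upward and 2 downward, whereas the 37 subunits had 6 rises and 11 falls.

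Among the core subunits NDUFV1 fell and NDUFS1 rose. NDUFV1 (chr11:67373124-67380025, + strand, GRCh37), which binds NADH and the flavin, was at 279, 338 and 345 CPM in the 3 DMSO libraries and at 173, 188 and 183 with amiloride. Every amiloride library lay below every DMSO library (log2 fold change -0.82 ± 0.08, SE; adjusted p = 4.06e-06). NDUFS1, the largest iron-sulfur subunit, was slightly higher (0.33 ± 0.07, adjusted p = 0.00114). The core subunits NDUFV2 (-0.02 ± 0.14), NDUFS3 (0.12 ± 0.08), NDUFS7 (0.21 ± 0.25) and NDUFS8 (-0.47 ± 0.20) did not pass the test.

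Among the supernumerary subunits of the peripheral arm, NDUFV3 (chr21:44299754-44333414, + strand), a small subunit next to NDUFV1 and NDUFV2, fell most. It was at 62.6, 59.1 and 58.9 CPM with DMSO and at 23.8, 15.6 and 15.1 with amiloride. Every amiloride library lay well below the DMSO libraries, and the groups differed 3.31-fold (-1.73 ± 0.16, adjusted p = 2.55e-06). NDUFS4 (chr5:52856463-52979168, + strand), a subunit whose loss causes Leigh syndrome, was at 7.17, 11 and 11.1 CPM with DMSO and at 14.3, 14.7 and 21.4 with amiloride, with no overlap (0.78 ± 0.19, adjusted p = 0.00329). NDUFA5 and NDUFA12 also rose, by 0.41 and 0.34 on the log2 scale, and NDUFA2 fell by 0.53.

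In the membrane arm 7 of 20 supernumerary subunits were lower and 2 higher, where 35.2% of all genes were lower and 33.5% higher. The distal subunit NDUFB2 was at 120.2, 117 and 105 CPM with DMSO and at 35.9, 73.6 and 31.3 with amiloride. Amiloride library 2 stood between the others and the controls, and the groups did not overlap (-1.28 ± 0.27, adjusted p = 0.002). NDUFA11, a proximal arm subunit, differed by -0.81 ± 0.17 (adjusted p = 0.00118), and NDUFC1, another, was at -1.02 ± 0.50 without passing (adjusted p = 0.102). NDUFB4 and NDUFB5, distal arm subunits, were the 2 that rose, each by 0.42.

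Among the 8 assembly factors, 6 rose and 2 fell, where 33.5% of all genes were higher and 35.2% lower. NDUFAF8 (chr17:79213105-79215110, + strand), which stabilises NDUFAF5, was at 15.7, 16.7 and 15.3 CPM with DMSO and at 4.81, 4.26 and 3.76 with amiloride. Both groups were tight and lay 3.70-fold apart (-1.89 ± 0.13, adjusted p = 2.76e-07), the deepest fall of any member in this comparison. NDUFAF5 (chr20:13765653-13802226, + strand), which hydroxylates an arginine of NDUFS7, was at 5.31, 4.52 and 4.72 CPM with DMSO and at 8.31, 14.6 and 13.2 with amiloride. All 3 amiloride libraries were above the controls, library 1 the least (1.31 ± 0.18, adjusted p = 6.19e-05). So these partner genes were called in opposite directions.

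NDUFAF6, needed early in assembly, was at 9.85, 14.0 and 14.3 CPM with DMSO and at 19.9, 27.0 and 19.5 with amiloride (0.80 ± 0.15, adjusted p = 0.000692). NDUFAF2, a paralogue of NDUFA12 that acts late on the peripheral arm, rose by 0.68 ± 0.11 (adjusted p = 0.000187). NDUFAF4, which binds an early intermediate together with NDUFAF3, rose by 0.59 ± 0.10 (adjusted p = 0.00019), and NDUFAF1, a factor of membrane arm assembly, rose by 0.55 ± 0.09 (adjusted p = 0.000125). NDUFAF3 was lower (-0.30 ± 0.09, adjusted p = 0.0103). The methyltransferase NDUFAF7 had the weakest call (0.28 ± 0.10, adjusted p = 0.0243). It did not pass without DMSO library 1 (0.21) or 3 (0.29), or without amiloride library 2 (0.27) or 3 (0.27).

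NDUFA4L2 (chr12:57628686-57634498, - strand) had the largest rise of any member here. Its level was 3.08, 3.13 and 2.49 CPM with DMSO and 10.4, 10.7 and 10.6 with amiloride. The amiloride libraries were nearly equal to each other and 3.66-fold above the controls (1.87 ± 0.14, adjusted p = 4.88e-07). Its paralogue NDUFA4 did not pass the test (-0.18 ± 0.08, adjusted p = 0.0627). Markers of cell type also moved in these libraries. The 8 markers of other cells summed to 159 to 179 CPM with DMSO and to 197 to 257 with amiloride, carried by EPCAM and PAX5, with ALB and HBB at or near 0. The 8 plasma cell markers summed to 2070 to 2160 CPM with DMSO and to 2820 to 3150 with amiloride. Of them 2 were called higher and 3 lower, where 33.5% of all genes were higher and 35.2% lower. IRF4 went from 1160 ± 37.6 CPM (SD, n = 3) to 2090 ± 123, SDC1 from 13.6 ± 0.488 to 2.58 ± 0.27 and MZB1 from 323 ± 31.4 to 81.7 ± 27. The part of these markers in the results was not tested.

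**Figure D2:**
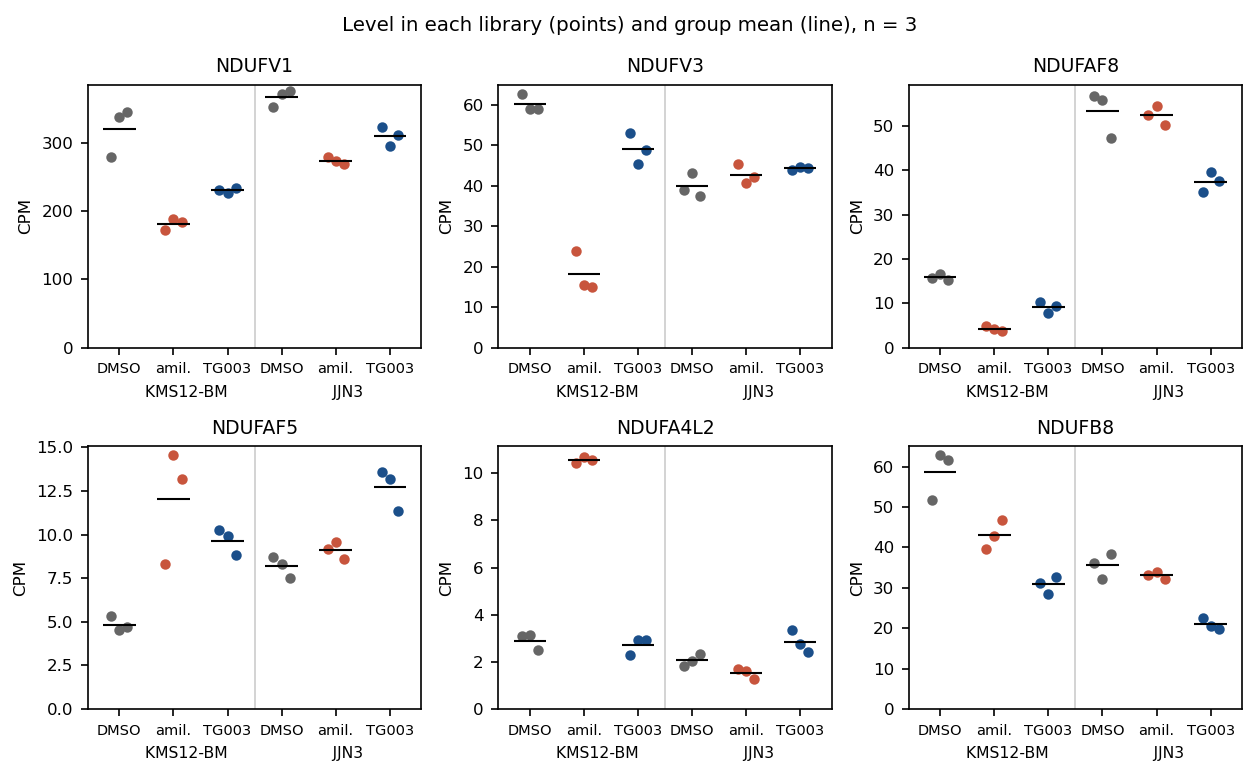
Levels of 6 NDUF genes in CPM in each library (points) with the mean of each group of 3 (lines), for DMSO, amiloride and TG003 in KMS12-BM (left of the grey line) and JJN3 (right). NDUFV3 and NDUFAF8 are low and NDUFA4L2 high in the 3 amiloride libraries of KMS12-BM, and NDUFB8 is low in the TG003 libraries of both lines.

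In JJN3 amiloride, at the higher dose of 0.4 mM, changed 11 of the 47 members, 7 upward and 4 downward. That is 23.4%, against 43.6% of 15704 genes tested (19.7% higher and 23.9% lower). With library number as a replicate block these 11 calls were kept and further members were called, where 47.3% of all genes were. Without a filter on counts the members' share was above that of all genes, which was 26.8%. That share is over 27127 genes with at least 1 read, whereas the members had passed a count rule. The 2 shares are therefore not like for like. The median log2 fold change was 0.10 for the members and -0.03 for all genes. Only NDUFB1 and NDUFC1 were called at 2-fold or more, where 7.14% of all genes were. After a trend of fold change with GC content over all genes was removed, 13 members were higher and 4 lower. The 8 plasma cell markers summed to 1950 to 2140 CPM with DMSO and to 1400 to 1840 with amiloride, 2 of them called lower and none higher, and the 8 markers of other cells to 79.9 to 91.7 and 74 to 102. Their part in the results was not tested.

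In JJN3 the core subunits NDUFV1 and NDUFV2 fell. NDUFV1 was at 352, 371 and 375 CPM with DMSO and at 278, 273 and 269 with amiloride. The groups were far apart relative to their spread (-0.43 ± 0.07, adjusted p = 0.000261). NDUFV2, which carries the iron-sulfur cluster next to the flavin site, was at 42.2, 67.1 and 70.2 CPM with DMSO and at 38.9, 38.9 and 36.0 with amiloride. DMSO library 1 came close to the amiloride libraries (-0.67 ± 0.15, adjusted p = 0.00508; -0.82 with its copies counted). NDUFS1, NDUFS3, NDUFS7 and NDUFS8 did not pass, at 0.09, 0.18, -0.28 and -0.26.

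The largest rise in JJN3 was that of NDUFB1, a small distal subunit. It was at 26.0, 28.4 and 25.7 CPM with DMSO and at 64.9, 67.3 and 57.7 with amiloride, a 2.35-fold difference with no overlap (1.24 ± 0.09, adjusted p = 9.33e-07). In KMS12-BM steps of similar size lay between libraries of the same group. They were at 29.8, 60.6 and 62.8 CPM with DMSO and at 58.6, 57.5 and 32.5 with amiloride. NDUFB3, another distal subunit, rose by 0.53 (adjusted p = 0.00303). NDUFC1, a small proximal subunit, was at 19.7, 7.5 and 18.1 CPM with DMSO and at 5.21, 6.5 and 6.97 with amiloride. DMSO library 2 lay close to the amiloride range (-1.26 ± 0.33, adjusted p = 0.0163), and the call was lost without amiloride library 1 (-1.16) or 2 (-1.28).

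In JJN3 3 of the 8 assembly factors rose and none fell, where 19.7% of all genes were higher and 23.9% lower. They were NDUFAF6 (0.43 ± 0.12, adjusted p = 0.0119), NDUFAF1 (0.27 ± 0.08, adjusted p = 0.0168) and NDUFAF2 (0.27 ± 0.09, adjusted p = 0.024). NDUFS4 rose by 0.36 ± 0.11 (adjusted p = 0.0159) and NDUFA12 by 0.30 ± 0.10 (adjusted p = 0.0278). Each of these 5 calls was lost on leaving out single libraries. For NDUFAF6 (0.32 and 0.33) and NDUFS4 (0.30 and 0.28) these were DMSO library 1 and amiloride library 3, and for NDUFAF1 (0.24 and 0.18) DMSO library 1 and amiloride library 2. For NDUFAF2 they were DMSO library 1 (0.19), DMSO library 2 (0.28) and amiloride library 2 (0.24), and for NDUFA12 DMSO library 3 (0.20) and amiloride libraries 1 (0.27) and 3 (0.30). NDUFAF3, NDUFAF4, NDUFAF5, NDUFAF7 and NDUFAF8 did not pass, at 0.20, 0.23, 0.14, 0.10 and -0.03. NDUFA4 (0.06 ± 0.11) and NDUFA4L2 (-0.44 ± 0.19) did not pass either.

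In both lines amiloride was followed by higher NDUFA12, NDUFAF1, NDUFAF2, NDUFAF6 and NDUFS4 and by lower NDUFV1. No member was called in opposite directions, 14.9% were called the same way and 36.2% (17) in neither line. Of the 13913 genes tested in both lines 5.37% were called in opposite directions, 28.7% the same way and 20.5% in neither. The difference between the responses was then tested directly as an interaction term over all 18 libraries. It was called for 19 members (40.4%), 5 with the KMS12-BM response above that of JJN3 and 14 below it, against 43.2% of 17772 genes (21.6% above and 21.6% below). Under upper-quartile scaling 3 were above and 16 below, and after removal of the GC trend over all genes 7 and 12. Dose and line differ together, so they cannot be told apart.

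The differences with the largest values involved genes of several roles. NDUFA4L2 stood 2.31 ± 0.23 higher in its KMS12-BM response on the log2 scale (adjusted p = 1.55e-07), and NDUFAF5 1.16 ± 0.22 higher (adjusted p = 0.000235). NDUFAF8 differed by -1.86 ± 0.15 (adjusted p = 1.01e-08); its JJN3 libraries were at 56.8, 55.9 and 47.4 CPM with DMSO and at 52.6, 54.6 and 50.2 with amiloride, so the groups overlapped there. NDUFV3 differed by -1.82 ± 0.17 (adjusted p = 7.94e-08), with JJN3 libraries at 38.9, 43.2 and 37.5 CPM with DMSO and at 45.5, 40.8 and 42.1 with amiloride, again overlapping. NDUFV1, whose fall was called in each line, differed by -0.40 ± 0.10 (adjusted p = 0.00377). NDUFB1 differed by -1.29 ± 0.33 (adjusted p = 0.00546); in KMS12-BM it was at 29.8, 60.6 and 62.8 CPM with DMSO and at 58.6, 57.5 and 32.5 with amiloride, with 1 low library in each group. Further members with a difference were NDUFC2 (-0.91 ± 0.29), NDUFA2 (-0.82 ± 0.18) and NDUFV2 (0.64 ± 0.22), the last of which was lost without any 1 of 5 libraries (0.51 to 0.60). Of the other assembly factors NDUFAF2 (0.41 ± 0.14), NDUFAF4 (0.36 ± 0.14) and NDUFAF3 (-0.51 ± 0.18) were called, and NDUFAF1 (0.28), NDUFAF6 (0.36) and NDUFAF7 (0.17) did not pass. Neither did NDUFS1 (0.23), NDUFS3 (-0.07), NDUFS7 (0.49), NDUFS8 (-0.22) and NDUFA4 (-0.25).

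**Figure D3:**
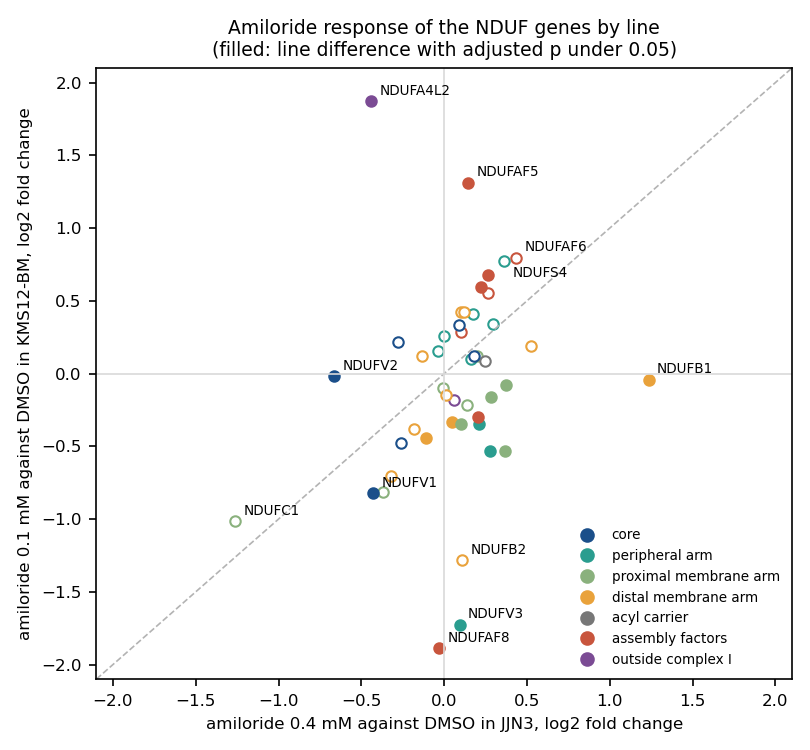
Log2 fold change with amiloride at 0.1 mM in KMS12-BM (vertical) against that at 0.4 mM in JJN3 (horizontal) for 46 NDUF genes, coloured by role; the dashed line marks equal responses. Filled points have a difference between lines with an adjusted p under 0.05, among them NDUFA4L2 and NDUFAF5 above the line and NDUFAF8, NDUFV3 and NDUFB1 below it.

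The responses varied with the base composition of the transcripts, among the members and among all genes. Of the 15 members with the lowest exon GC content (34.6% to 44%), 10 were higher and 1 lower in KMS12-BM (median 0.34), and of the 16 with the highest (54.2% to 66.9%) 1 was higher and 8 were lower (median -0.32). Over all genes tested in the same GC ranges 49.5% were higher and 20.2% lower in the low range, and 18.9% and 52.9% in the high range. In JJN3 4 of the 15 were higher and none lower, and of the 16 none was higher and 1 lower, against 23.1% and 20.1%, and 15.9% and 28.8%, of all genes. With TG003 in KMS12-BM the 15 had 5 higher and 2 lower and the 16 had 1 and 6, where all genes had 30.1% and 29.2%, and 23.4% and 32.8%. With TG003 in JJN3 they had 6 and 0, and 1 and 5, where all genes had 28.4% and 29.3%, and 25.1% and 32.3%. Spearman's rho between GC content and the response over the 47 members, which share libraries and are not independent, was -0.47 in KMS12-BM and -0.54 in JJN3 with amiloride and -0.27 and -0.39 with TG003. With a GC trend over coding genes removed, an alternative chosen after seeing the data, 15 of the 26 amiloride calls in KMS12-BM were kept. Among those kept, NDUFV3 was at -1.74, NDUFAF8 at -1.42, NDUFA4L2 at 2.42, NDUFAF5 at 0.96 and NDUFV1 at -0.37. NDUFS1 (0.03), NDUFAF3 (-0.01), NDUFAF4 (0.15) and NDUFAF7 (0.02) were no longer called. In JJN3 10 of 11 calls were kept. Of the 19 line differences 12 were kept, and those of NDUFV1 (-0.04), NDUFV2 (0.50), NDUFAF2 (0.22), NDUFAF3 (-0.25) and NDUFAF4 (-0.03) were lost. The part of base composition in these results was not tested further.

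The 7 mitochondrially encoded subunits are the other genetic source of core complex I. With amiloride 6 of the 7 fell in each line, with log2 fold changes of -6.54 to -3.78 in KMS12-BM and -2.68 to -0.73 in JJN3, while MT-ND6, from the other strand, rose by 2.70 and 4.01. With TG003 their log2 fold changes lay between -0.47 and 0.11 in both lines, with adjusted p of 0.092 or more. Of 11 assembly factors with other names, 5 rose and 5 fell with amiloride in KMS12-BM, where 33.5% of all genes were called higher and 35.2% lower, and 4 rose and 3 fell in JJN3, where 19.7% and 23.9% were. ACAD9, an acyl-CoA dehydrogenase that also assembles the membrane arm, fell by 1.77 ± 0.14 on the log2 scale in KMS12-BM (adjusted p = 9.11e-07) and by 0.34 ± 0.09 in JJN3 (adjusted p = 0.0106), a tested difference of -1.44 ± 0.17 (adjusted p = 1.35e-06). TMEM126B, a partner of ACAD9 and NDUFAF1, rose in both lines, by 0.93 ± 0.08 (adjusted p = 1.5e-06) and 0.62 ± 0.09 (adjusted p = 0.000137). FOXRED1 fell in both, by 1.11 ± 0.10 (adjusted p = 2.41e-06) and 0.36 ± 0.10 (adjusted p = 0.00784).

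Before the TG003 results, the placement of reads has to be described for members with processed pseudogenes, which are intronless copies of a messenger RNA. Of the 47 members 21 had a named processed pseudogene and 26 had none. Over the 21, reads given to pseudogenes summed to 205 CPM in KMS12-BM and 619 in JJN3 with DMSO, to 185 and 383 with amiloride, and to 0.188 and 0.501 with TG003. With DMSO in both lines, and with amiloride in JJN3, the 4 genes NDUFV2, NDUFA4, NDUFA5 and NDUFB4 had at least 10% of the joint level of gene and copies on copies. With amiloride in KMS12-BM NDUFA5 was at 9.35% and the others above 10%, and with TG003 all 4 were at 0% to 0.67%. Of their 27 copies 4 had a mean of at least 1 CPM in some group, and these were the 4 that share an exact run of 50 bases with the parent transcript. The 4 were 95.9% to 98.3% equal to the parent, and the other 23 at most 95.6%.

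NDUFA4 and its copy NDUFA4P1 (chr1:108047825-108048070, + strand, GRCh37) show how alike they are. They are compared over the 246 bases of the NDUFA4 coding sequence, counted from 1 at the A of its start codon, with the 6 differing bases in capitals (C7T, A16C, A79T, G104A, A194G and C232T, the gene's base first).
NDUFA4: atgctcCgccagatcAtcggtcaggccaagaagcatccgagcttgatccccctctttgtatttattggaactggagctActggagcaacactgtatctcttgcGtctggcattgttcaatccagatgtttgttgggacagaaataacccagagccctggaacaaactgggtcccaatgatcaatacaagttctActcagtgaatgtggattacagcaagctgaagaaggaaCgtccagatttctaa
NDUFA4P1: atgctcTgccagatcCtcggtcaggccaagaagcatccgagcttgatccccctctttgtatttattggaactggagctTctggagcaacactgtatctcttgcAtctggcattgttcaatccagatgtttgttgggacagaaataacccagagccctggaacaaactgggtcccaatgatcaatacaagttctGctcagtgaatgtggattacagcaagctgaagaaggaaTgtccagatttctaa

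The same holds for NDUFV2 (chr18:9102628-9134343, + strand) and NDUFV2P1 (chr19:53727226-53728132, - strand). Over all 693 aligned bases they differ at 12 (98.3% equal). Only a part of that alignment is shown. Over coding bases 73 to 318 of NDUFV2, a stretch of 246 bases, they differ at a single base (T14C, counted from 1 at the first base shown).
NDUFV2: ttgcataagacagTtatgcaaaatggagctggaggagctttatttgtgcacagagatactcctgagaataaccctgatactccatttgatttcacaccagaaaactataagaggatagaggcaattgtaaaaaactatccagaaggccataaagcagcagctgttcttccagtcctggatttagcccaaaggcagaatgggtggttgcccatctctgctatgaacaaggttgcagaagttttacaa
NDUFV2P1: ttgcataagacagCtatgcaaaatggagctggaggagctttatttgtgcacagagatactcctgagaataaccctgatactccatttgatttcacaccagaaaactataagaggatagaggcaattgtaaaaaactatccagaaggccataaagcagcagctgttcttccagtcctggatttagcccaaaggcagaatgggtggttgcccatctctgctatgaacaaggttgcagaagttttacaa

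For NDUFV2 the copy held most of the reads outside TG003. In KMS12-BM with DMSO the gene had 13.6 ± 1.79 CPM and its copies 122 ± 6.07 (SD, n = 3), so 90.0% of the joint level lay on copies, and in JJN3 59.8 ± 15.3 and 493 ± 28.5 (89.2%). With TG003 the copies had 0.0964 CPM in KMS12-BM and 0.463 in JJN3. The gene's own level was 17.5 ± 1.67 and 68.5 ± 3.16 CPM there, so the reads missing from the copies were not counted at the gene. Exons of NDUFV2 overlap another gene on the same strand over 28.4% of their length. How reads there were counted was not tested. The NDUFV2 count alone was called higher with TG003 in KMS12-BM (0.37 ± 0.14, adjusted p = 0.0386), but not without any 1 of 5 libraries (0.27 to 0.41). With copies summed into the parent it was called lower (log2 fold change -2.95, adjusted p = 1.22e-10), and in JJN3 as well (-2.98, adjusted p = 1.18e-12), where the gene alone was at 0.23 and not called. The direction for NDUFV2 with TG003 therefore turns on whether reads of the copies are counted.

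**Figure D4:**
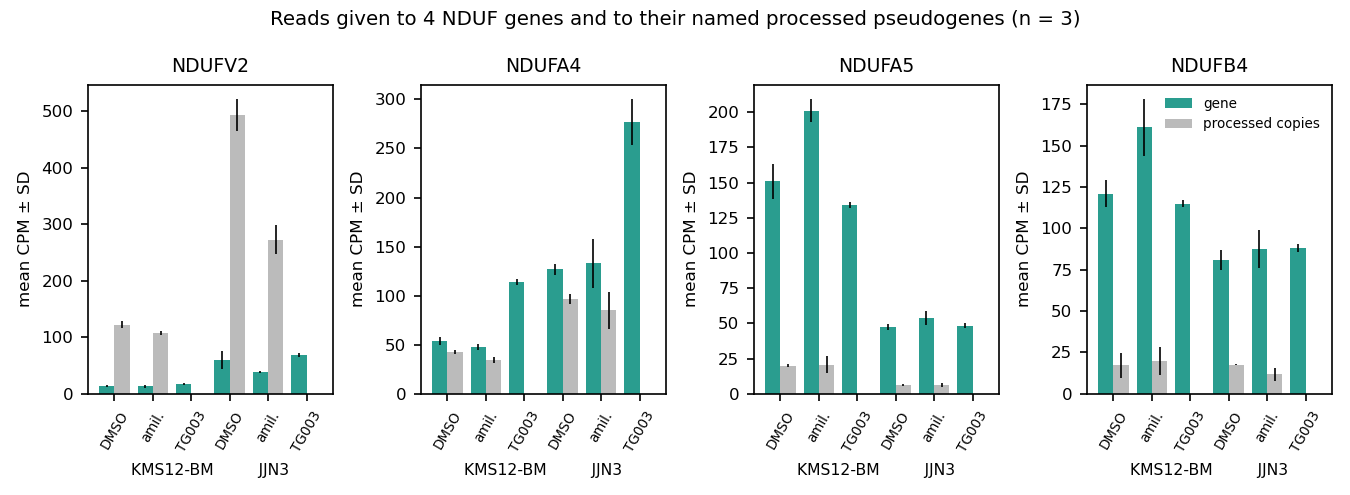
Mean CPM ± SD over 3 libraries given to each of 4 NDUF genes (green) and to their named processed pseudogenes (grey) in the 6 groups. The grey bars are present with DMSO and amiloride, exceed the gene for NDUFV2, and are near 0 with TG003, where NDUFA4 itself is higher.

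All 6 TG003 libraries differed from the 12 DMSO and amiloride libraries in where reads were placed, as given above. In the comparisons with DMSO, TG003 and that difference therefore cannot be told apart, for members with or without a pseudogene. With TG003 in KMS12-BM 22 of the 47 members were called, 11 upward and 11 downward. The share, 46.8%, compares with 58.6% of all genes (26.9% higher and 31.7% lower), and the medians were -0.02 for the members and -0.03 for all genes. Only 3 members were called at 2-fold or more, where 22.8% of all genes were. In JJN3 18 were called, 12 upward and 6 downward (38.3% against 58.3% of all genes, 26.2% higher and 32.1% lower), with medians of 0.15 and -0.04, and 3 were called at 2-fold or more, where 19.1% of all genes were. After removal of the GC trend over all genes the splits were 29 higher and 6 lower in KMS12-BM and 32 and 3 in JJN3, and the median of all genes shifted to 0.39 and 0.41. With the trend over coding genes removed in its place, all 22 and 18 calls were kept. All 8 plasma cell markers fell with TG003 in both lines (medians -1.21 and -0.90), their sum being 2070 to 2160 CPM with DMSO and 904 to 959 with TG003 in KMS12-BM, and 1950 to 2140 against 1070 to 1180 in JJN3. The 8 markers of other cells summed to 145 to 158 CPM with TG003 in KMS12-BM and to 44.4 to 50.8 in JJN3. The part of these markers in the results was not tested.

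With TG003 the core subunits NDUFS3 and NDUFV1 were called in both lines, the first higher and the second lower. NDUFS7, which carries the last cluster before ubiquinone, was at 26.8, 17.4 and 20.2 CPM with DMSO and at 52.1, 39.9 and 30.3 with TG003 in KMS12-BM. The libraries of both groups were widely spaced without overlapping (0.93 ± 0.25, adjusted p = 0.0097). In JJN3 NDUFS7 did not pass (0.43 ± 0.22, adjusted p = 0.118). NDUFS3 rose in both lines, by 0.30 ± 0.08 (adjusted p = 0.00738) and 0.40 ± 0.10 (adjusted p = 0.00347). NDUFV1 fell in both, by 0.47 ± 0.08 on the log2 scale (adjusted p = 0.000449) and by 0.21 ± 0.07 (adjusted p = 0.015), the second lost without TG003 library 2 (-0.17). NDUFS1 rose in JJN3 (0.22 ± 0.07, adjusted p = 0.0201) but not without any 1 of 4 libraries (0.19 to 0.20), and was at 0.01 ± 0.07 in KMS12-BM. NDUFS8 passed in neither line, at 0.19 and 0.26.

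The assembly factors split into higher and lower genes. NDUFAF6 was at 9.85, 14.0 and 14.3 CPM with DMSO and at 25.7, 25.5 and 24.8 with TG003 in KMS12-BM (0.99 ± 0.15, adjusted p = 0.00021). In JJN3 it was at 10.3, 13.6 and 13.4 with DMSO and at 28.6, 30.9 and 26.6 with TG003 (1.24 ± 0.12, adjusted p = 1.66e-06), so the TG003 libraries were clear of the controls in both lines. NDUFAF5 rose by 1.0 ± 0.19 (adjusted p = 0.000729) and 0.66 ± 0.11 (adjusted p = 0.000153), and NDUFAF7 by 0.73 ± 0.10 (adjusted p = 7.25e-05) and 0.72 ± 0.09 (adjusted p = 1.48e-05). NDUFAF8 fell in both, from 15.7, 16.7 and 15.3 CPM to 10.2, 7.91 and 9.5 in KMS12-BM (-0.78 ± 0.12, adjusted p = 0.000241) and from 56.8, 55.9 and 47.4 to 35.1, 39.6 and 37.6 in JJN3 (-0.48 ± 0.08, adjusted p = 0.00028). NDUFAF3 and NDUFAF4 fell in KMS12-BM, by 0.51 and 0.35, and NDUFAF2 rose in JJN3, by 0.47, each without a call in the other line. NDUFAF1 was at 0.03 and 0.00 and passed in neither.

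NDUFA4, the former complex I subunit, was 2.12-fold higher with TG003 in KMS12-BM and 2.23-fold higher in JJN3. It went from 58.6, 51.2 and 52.5 CPM with DMSO to 112.5, 112.9 and 117 with TG003 in KMS12-BM, with the 3 TG003 libraries close together (1.08 ± 0.08, adjusted p = 4.47e-07). In JJN3 it went from 130.5, 129.7 and 120.4 to 301, 276 and 255 (1.16 ± 0.11, adjusted p = 1.82e-06). Over the same groups the copy NDUFA4P1 was at 42.3 CPM with DMSO and 0.0174 with TG003 in KMS12-BM, and at 96.3 and 0 in JJN3, so 43.9% and 43.2% of the joint level lay on the copy with DMSO and almost none with TG003. With the copies counted with the gene, the rise was 0.24 on the log2 scale in KMS12-BM (adjusted p = 0.00884) and 0.34 in JJN3 (adjusted p = 0.00213), still called but much smaller, as the plot of genes and copies shows. NDUFA4L2 rose in JJN3 (0.49 ± 0.18, adjusted p = 0.0361), a call lost without any 1 of 4 libraries (0.36 to 0.51), and was at -0.08 ± 0.15 in KMS12-BM.

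With TG003 4 supernumerary subunits fell in both lines, of 9 in the peripheral arm, 9 in the proximal and 11 in the distal membrane arm. Of all genes tested in both lines 22.8% were lower in both. NDUFB8, a distal subunit whose protein is widely used as a gauge of assembled complex I, was at 51.6, 63.0 and 61.6 CPM with DMSO and at 31.3, 28.5 and 32.8 with TG003 in KMS12-BM (-0.92 ± 0.10, adjusted p = 1.33e-05). In JJN3 it was at 36.2, 32.2 and 38.4 with DMSO and at 22.6, 20.6 and 19.9 with TG003 (-0.73 ± 0.09, adjusted p = 1.22e-05). The groups did not overlap in either line. NDUFA13, also called GRIM19, fell from 45.7, 40.6 and 36.7 CPM to 23.9, 23.1 and 18.6 in KMS12-BM (-0.90 ± 0.12, adjusted p = 7.28e-05) and from 61.4, 66.6 and 65.2 to 50.3, 33.4 and 41.0 in JJN3 (-0.60 ± 0.12, adjusted p = 0.00104). NDUFS6, which carries a zinc site of the peripheral arm, fell by 0.76 ± 0.09 (adjusted p = 2.45e-05) and 0.58 ± 0.08 (adjusted p = 4.07e-05). NDUFA6 fell by 0.42 ± 0.15 (adjusted p = 0.0274) and 0.29 ± 0.12 (adjusted p = 0.0478), the second lost without any 1 of 4 libraries (-0.27 to -0.23).

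Among the supernumerary subunits that rose, NDUFS4 was higher in both lines (0.56 ± 0.19, adjusted p = 0.0238, and 0.62 ± 0.11, adjusted p = 0.000268). NDUFC1 was at 4.91, 4.94 and 20.3 CPM with DMSO and at 33.3, 28.5 and 30.9 with TG003 in KMS12-BM, where DMSO library 3 stood well above the others (1.61 ± 0.48, adjusted p = 0.0178; 1.28 and not called without DMSO library 2). Its call in JJN3 (0.85 ± 0.31, adjusted p = 0.0446) was lost without any of the 3 TG003 libraries (0.82 to 0.88). NDUFB1 rose in JJN3, from 26.0, 28.4 and 25.7 CPM to 58.6, 58.2 and 51.0 (1.09 ± 0.09, adjusted p = 1.49e-07), and did not pass in KMS12-BM (0.37 ± 0.28). There the DMSO libraries alone spread over a similar range, at 29.8, 60.6 and 62.8 CPM. For 8 members over 10% of the exon length overlaps another gene on the same strand. Exons of NDUFB8 do so over 33.8% of their length, those of NDUFA7 over 32.5%, NDUFV2 over 28.4% and NDUFA13 over 21.0%. For NDUFC2 it is 18.6%, for NDUFS3 16.0%, for NDUFC1 12.0% and for NDUFA9 10.6%. How such reads were counted may bear on these members in every comparison and was not tested.

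With TG003 7 members were called higher in both lines, 6 lower in both, none in opposite directions and 20 in neither (14.9%, 12.8%, 0% and 42.6%). Of all genes tested in both lines 17.7% were higher in both, 22.8% lower in both, 1.96% opposite and 23.8% called in neither. The direct test found 2 differences between the lines (1 in each direction, 4.26% of members, against 13.9% of all genes, 7.13% above and 6.8% below). NDUFB3 was among them, at -0.52 ± 0.17 (adjusted p = 0.0431), and its call was lost without any 1 of 11 libraries (-0.55 to -0.46). Without a filter on counts the share of members with a line difference was above that of all genes, which was 8.38%. That share is over 30473 genes with at least 1 read, whereas the members had passed a count rule, so the shares are not like for like. The differences of NDUFS1, NDUFS3, NDUFS7, NDUFS8, NDUFV1 and NDUFV2 lay between -0.24 and 0.53 and those of the 8 NDUFAF factors between -0.44 and 0.36, and none of them passed. NDUFA4 (-0.05) and NDUFA4L2 (-0.54) did not pass either. Across both drugs and lines NDUFAF6 and NDUFS4 were called higher and NDUFV1 lower in all 4 comparisons, which share the DMSO libraries of each line.

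With DMSO alone the lines differed at 32 of the 47 members, 17 higher and 15 lower in KMS12-BM than in JJN3. The share, 68.1%, compares with 76.0% of all genes (36.8% higher and 39.3% lower), and 10 members were called at 2-fold or more, where 43.9% of all genes were. Of the 11 distal membrane arm subunits 8 were higher in KMS12-BM and none lower (median 0.68). The distal subunits summed to 1164 ± 19.5 CPM in KMS12-BM and 841.1 ± 49.7 in JJN3 (SD, n = 3).

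The widest difference between the lines was at NDUFV2, at 13.6, 11.8 and 15.3 CPM in KMS12-BM and at 42.2, 67.1 and 70.2 in JJN3. The lines did not overlap, and it was 4.40-fold lower in KMS12-BM (-2.14 ± 0.16, adjusted p = 2.92e-10). Its copies differed the same way, at 122 and 493 CPM, and with them counted the value was -1.96. NDUFS7 was lower in KMS12-BM by 0.98 ± 0.26 on the log2 scale (adjusted p = 0.00299). NDUFV1 was lower by 0.19 ± 0.07 (adjusted p = 0.0241), a call lost without KMS12-BM library 1 (-0.10), JJN3 library 2 (-0.18) or JJN3 library 3 (-0.18). NDUFS3 was higher, by 0.72 ± 0.09 (adjusted p = 5.69e-07), and NDUFS1 (0.12) and NDUFS8 (0.10) did not pass.

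Of the supernumerary subunits NDUFA5, in the peripheral arm, was at 137, 158 and 159 CPM in KMS12-BM and at 48.3, 48.7 and 45.4 in JJN3. The lines were 3.19-fold apart with no overlap (1.67 ± 0.08, adjusted p = 5.16e-14). NDUFB2 was at 120.2, 117 and 105 CPM in KMS12-BM and at 18.8, 54.3 and 47.0 in JJN3, with the first JJN3 library low (1.51 ± 0.40, adjusted p = 0.00377). NDUFA1 was 1.29 ± 0.12 higher (adjusted p = 3.78e-09) and NDUFA8 1.10 ± 0.11 higher (adjusted p = 1.3e-08). NDUFS5 was at 78, 82 and 77.4 CPM in KMS12-BM and at 215, 204.5 and 167 in JJN3 (-1.30 ± 0.09, adjusted p = 3.39e-11), and NDUFS4 was lower as well (-1.27 ± 0.16, adjusted p = 6.96e-07).

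Of the assembly factors NDUFAF3 (0.93 ± 0.13, adjusted p = 2.1e-06) and NDUFAF4 (2.18-fold, adjusted p = 1.78e-09), which act together, were both higher in KMS12-BM. NDUFAF8 and NDUFAF5, also partners, were both lower there, by values of -1.75 ± 0.10 (adjusted p = 2.65e-12) and -0.76 ± 0.16 (adjusted p = 0.00023). NDUFAF2 (-0.96 ± 0.10, adjusted p = 2.86e-08) and NDUFAF7 (-0.56 ± 0.10, adjusted p = 2.15e-05) were lower too, while NDUFAF1 (-0.01) and NDUFAF6 (0.04) did not pass. NDUFA4 was lower in KMS12-BM (-1.23 ± 0.10, adjusted p = 8.47e-10). NDUFA4L2 was slightly higher (0.48 ± 0.17, adjusted p = 0.0132), a call lost without KMS12-BM library 2 (0.42) or JJN3 library 1 (0.41). Among the factors with other names COA1 was 1.80 ± 0.09 higher (adjusted p = 3.53e-13) and TMEM186 lower (-1.10 ± 0.09, adjusted p = 5.62e-10).

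**Figure D5:**
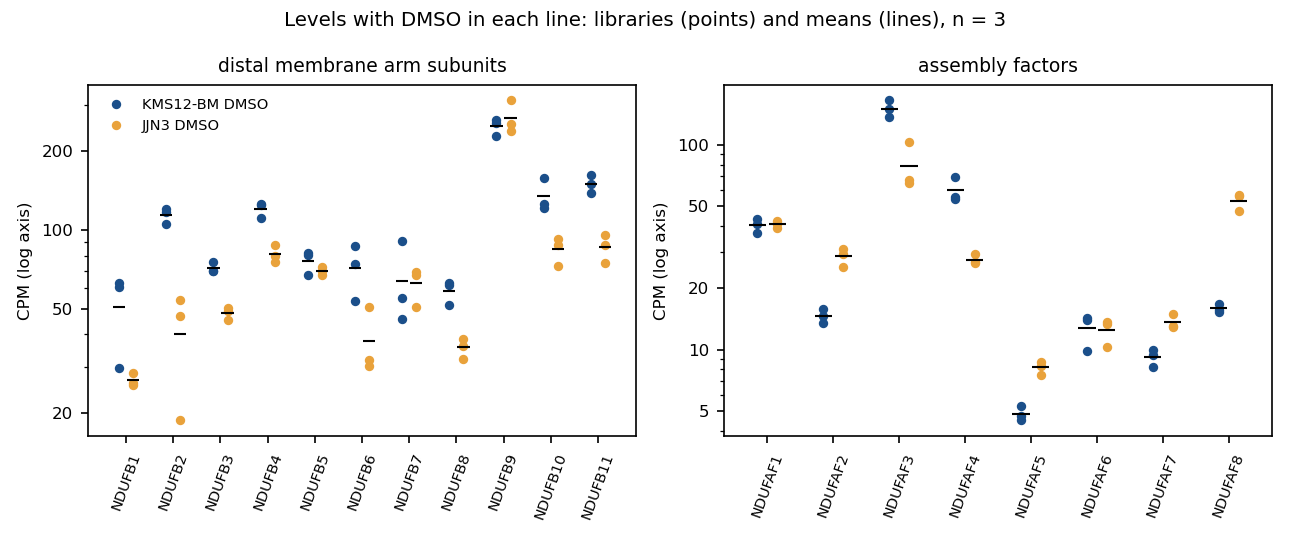
CPM with DMSO (log axis) of the 11 distal membrane arm subunits (left) and the 8 NDUFAF assembly factors (right) in each KMS12-BM (blue) and JJN3 (orange) library, with the mean of each group of 3 as a line. The KMS12-BM libraries lie above for most distal subunits, NDUFAF3 and NDUFAF4, and below for NDUFAF2, NDUFAF5, NDUFAF7 and NDUFAF8.

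The members' median spread between libraries of 1 group was above that of protein-coding genes over the same minimum level in each group but TG003 in KMS12-BM. Over the 44 members with at least 10 CPM on average, the median coefficient of variation was 10.5% in KMS12-BM and 11.2% in JJN3 with DMSO. It was 6.90% and 6.51% over all 9030 protein-coding genes with at least 10 CPM, which were not matched to the members in level or length. With amiloride the members' median was 9.68% and 8.79% (9.23% and 7.48% over the 9030), and with TG003 4.67% and 6.28% (5.59% and 5.70%). Libraries of a DMSO group lay more than 2-fold apart for NDUFA3, NDUFAB1, NDUFB1 and NDUFC1 in KMS12-BM and for NDUFA3, NDUFB2, NDUFC1 and NDUFC2 in JJN3, and no member did so with TG003. NDUFA3, at 35.6, 19.6 and 49.4 CPM with DMSO in KMS12-BM, and NDUFAB1, at 51.0, 136 and 135, were called in no comparison, with standard errors of 0.27 to 0.55 on the log2 scale. NDUFA7, NDUFA10, NDUFB9 and NDUFS8 were called in no comparison either.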

How the data were processed

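Messenger RNA was measured in 18 libraries, 3 in each of 6 groups. The deposited files give, for each library, the number of reads (a whole count) in each Ensembl gene, made by the authors with cutadapt 1.4, TopHat2 2.0.11 and HTSeq 0.6.1p1 on hg19, per the submitters' processing notes; DESeq2 1.12.4 is also named there. Neither the gene annotation nor the alignment options and strandedness of the counting are stated (not given in the sources used here), so reads of a gene and its antisense partner may not be told apart. The deposited tables of normalized values were not used.

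Counts were joined by Ensembl identifier to a GRCh37 annotation (GENCODE), which matched 55538 of 57905 genes. Counts were fitted with edgeR 4.0.16 in R 4.3.3 (filterByExpr with a minimum count of 10 and 15 in total, TMM scaling, robust quasi-likelihood F tests). Each drug was compared with DMSO in a fit of the 9 libraries of its line. The lines, and the 2 interaction terms (KMS12-BM response minus JJN3 response), were compared in a fit of all 18. Genes were called at a Benjamini-Hochberg adjusted p under 0.05 over all genes tested. Adjusted p-values are from edgeR, and the standard error after ± is the log2 fold change divided by the square root of F, an approximation, unless SD is stated. Levels are CPM, counts scaled to a common library size, with TMM scaling over all libraries. The fit was tested on simulated data.

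Named in every comparison were the core subunits, the NDUFAF factors, NDUFA4 and NDUFA4L2, with up to 5 members of the largest called rise and 5 of the largest called fall; members named for other reasons were chosen after their values were seen. The values of 1 member are not reported here, and counts over all members include it. Members and lists were chosen with earlier results of these data known. Alternatives were DESeq2 size factors and upper-quartile factors, 2 other filters, DESeq2 1.42.0 and limma 3.58.1 (voom), library number as a replicate block, the compared groups alone, removal of mitochondrial genes, pseudogene counts summed into parents, removal of a GC trend, and each library left out. Copies were aligned with Biopython 1.88.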

Additional observations from a re-analysis of the deposited data

Results flagged for a closer look

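The responses to amiloride of the genes below differed between the lines by the test of the difference itself, KMS12-BM at 0.1 mM minus JJN3 at 0.4 mM, with edgeR's adjusted p under 0.05. Dose and line cannot be told apart in any of them. On the log2 scale the response was higher in KMS12-BM for NDUFA4L2 (2.31), NDUFAF5 (1.16), NDUFV2 (0.64), NDUFAF2 (0.41) and NDUFAF4 (0.36). It was lower in KMS12-BM for the assembly factors NDUFAF8 (-1.86) and NDUFAF3 (-0.51) and for the core subunit NDUFV1 (-0.40). Among the peripheral arm subunits it was lower for NDUFV3 (-1.82), NDUFA2 (-0.82) and NDUFA6 (-0.57). Among the membrane arm subunits it was lower for NDUFB1 (-1.29), NDUFC2 (-0.91), NDUFA1 (-0.46), NDUFS5 (-0.46), NDUFA8 (-0.45), NDUFB10 (-0.39) and NDUFB8 (-0.34). For NDUFB1 and NDUFC2 single libraries stood apart within a group, as given above.

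The responses to TG003, given at 0.4 mM to both lines, differed by the same test for NDUFB3 (-0.52).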

How the results depend on the processing

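Of 2700 values of single genes under an alternative, 2496 kept their direction and side of the threshold, 123 lost a call, 72 gained one and 9 reversed; 68 of those counted as kept changed sign with neither value called. Of 272 counts 230 stayed within 1.5 times. The cause of the changes below was not tested. Without a filter, amiloride in JJN3 gave 16 higher and 7 lower members, TG003 in JJN3 19 higher, and the TG003 line difference 4 and 6. Of all genes with a read, 26.8%, 36.7% and 8.38% were called there. For amiloride in JJN3 and the TG003 line difference the members' share was then above that of all genes, unlike in the main fit. The members had passed a count rule that the other genes need not have met, so these shares are not like for like. With a GC trend over all genes removed, amiloride in JJN3 gave 13 higher, TG003 29 higher and 6 lower in KMS12-BM and 32 and 3 in JJN3, and the TG003 line difference 0 and 4. Of all genes, 46.9%, 73.7%, 75.5% and 17.9% were called in these 4 comparisons. The same setting reversed NDUFAF3 with amiloride in KMS12-BM (0.089), NDUFV1 (0.048), NDUFAF1 (0.707) and NDUFA6 (0.421) with TG003 in JJN3, NDUFAF1 between lines (0.312) and the amiloride line difference of NDUFV1 (0.034). The trend over coding genes, added after seeing the data, reversed that of NDUFAF4 (-0.03) and gave 2 lower in the TG003 line difference. Upper-quartile factors gave 3 higher in the amiloride line difference and 0 lower in that of TG003, as did removal of mitochondrial genes for the latter (0). Summing pseudogenes gave 0 higher and 3 lower there and reversed NDUFV2 with TG003 (-2.946 in KMS12-BM and -2.982 in JJN3).

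Leaving out each library in turn gave 12 to 13 higher and 12 to 15 lower for amiloride in KMS12-BM, 5 to 9 and 3 to 4 in JJN3, 8 to 11 and 9 to 12 for TG003 in KMS12-BM, 9 to 15 and 4 to 8 in JJN3, and 17 to 18 and 13 to 16 between lines. The amiloride line difference ranged from 2 to 8 higher and 9 to 15 lower: 8 were higher without KMS12-BM amiloride library 1 or JJN3 amiloride library 2, 3 without KMS12-BM amiloride library 2, and 2 without JJN3 DMSO library 2 or JJN3 amiloride library 3, and 9 were lower without JJN3 DMSO library 3 or JJN3 amiloride library 2. The TG003 line difference ranged from 0 to 2 in each direction.

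Library numbers were not taken to pair the samples, since not every same-numbered pair correlated over 0.1: deviations of libraries with the same number correlated at 0.061 to 0.27 in KMS12-BM and -0.07 to 0.157 in JJN3, with 4 of 9 pairs over 0.1 in each, though 8 of 9 libraries in each line correlated best with their own number, a hint from the data that a set may share something. With the number as a replicate block the counts were 13 higher and 15 lower for amiloride in KMS12-BM, 10 and 5 in JJN3, 12 and 12 for TG003 in KMS12-BM, 12 and 7 in JJN3, 17 and 15 between lines, 6 and 14 for the amiloride line difference and 1 and 1 for that of TG003. Members at few CPM, such as NDUFA4L2 and NDUFA7, and those whose libraries spread more than 2-fold limit what the 3 libraries of a group can show.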
